A study of Mus musculus with 12 samples.

Results

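The genes described here are 9 components of the retinoic acid pathway in mouse embryonic stem cells: the synthetic enzyme gene Aldh1a2, the retinaldehyde reductase gene Dhrs3, the binding protein genes Crabp1 and Crabp2, the receptor genes Rara, Rarb, Rarg and Rxra, and the clearance enzyme gene Cyp26a1. They were chosen by name, and all 9 were found by their Ensembl IDs among the 36521 genes of each deposited gene table. RNA was sequenced from 12 libraries in 3 groups of 4, all of the mouse embryonic stem cell line V6.5 grown in serum with LIF (leukemia inhibitory factor). The Tet1kd and Tet2kd cells were stable lines given a pSUPER-puro vector with a short hairpin RNA against Tet1 or Tet2, the genes of enzymes that oxidize 5-methylcytosine. They were electroporated, selected with puromycin on inactivated feeder cells that resist the drug, and picked as single clones. The parental cells carried no knockdown. No group held an empty vector or a control hairpin, so the knockdown cannot be told apart from the vector, the selection or the cloning, and how many clones each group came from is not stated in the sources used here.

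Retinoic acid is made from vitamin A. Retinol is oxidized to retinaldehyde, which aldehyde dehydrogenases such as Aldh1a2 turn irreversibly into retinoic acid, while Dhrs3 reduces retinaldehyde back to retinol. In the cytosol retinoic acid is carried by Crabp1, which is linked to its breakdown, and by Crabp2, which passes it to nuclear receptors. The receptors RAR (Rara, Rarb, Rarg) bind DNA as heterodimers with RXR (Rxra and its relatives) at paired hexamers called retinoic acid response elements. Rarb, Cyp26a1 and Dhrs3 are themselves known targets of retinoic acid, and Cyp26a1 degrades it, which makes a feedback loop. In embryonic stem cells retinoic acid is a widely used differentiation signal.

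The 2 promoters printed here are those of the members with a match to a response element, the DNA site through which the receptors act. RefSeq windows on GRCm38.p6, from 250 bases before to 50 bases after a transcript start, existed for 8 of the 9 members, in 15 windows (none for Crabp2). They were searched on both strands for direct repeats with a spacer of 5 (DR5), 2 (DR2) or 1 (DR1) bases. The repeat units searched were the hexamer AGGTCA, its relative AGTTCA, the hexamer GGGTCA and its relative GGTTCA. A direct repeat was found in 2 of the 15 windows, both times a DR5, in the window of Cyp26a1 and in that of Rarb. The Cyp26a1 window is chr19:37697558-37697857 on the plus strand, with the element on the opposite strand at positions -32 to -16 from the start. The Rarb window is chr14:16575427-16575726 on the minus strand, with the element on the same strand as the gene at -53 to -37. Both windows are printed 5′ to 3′ along their gene, with the DR5 in capitals.
Cyp26a1 promoter: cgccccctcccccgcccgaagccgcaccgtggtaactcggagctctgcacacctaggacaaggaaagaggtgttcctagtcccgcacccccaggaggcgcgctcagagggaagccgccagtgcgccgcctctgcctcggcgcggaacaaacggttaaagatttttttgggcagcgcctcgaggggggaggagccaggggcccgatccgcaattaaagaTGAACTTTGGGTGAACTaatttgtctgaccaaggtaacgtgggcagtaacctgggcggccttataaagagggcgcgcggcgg
Rarb promoter: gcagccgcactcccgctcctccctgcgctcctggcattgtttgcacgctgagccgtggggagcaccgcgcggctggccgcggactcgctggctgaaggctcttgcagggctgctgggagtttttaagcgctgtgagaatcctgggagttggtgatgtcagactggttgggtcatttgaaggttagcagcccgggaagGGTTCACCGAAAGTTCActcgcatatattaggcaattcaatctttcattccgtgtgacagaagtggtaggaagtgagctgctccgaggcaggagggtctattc
Among 32544 distinct promoter windows of the genome, 0.0983% held a DR5, 0.27% a DR2 and 0.224% a DR1. At least 1 hexamer, alone or in a repeat, occurred in 43.7% of them and in 6 of the 15 member windows. The capitals mark letters only, and binding of a receptor was not measured.

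Each value below is a normalized count, the number of reads of a library divided by its size factor. The gene tables hold group means of 4 libraries, and reads per library were recovered from the digits of these means. Libraries are lettered a to d from the deepest to the shallowest, since nothing ties them to the replicate numbers of the labels. Values per library are on a scale shared by all 12 libraries, and fold changes are knockdown over parental. A gene was called higher or lower where the adjusted p of the first test in the authors' deposited table was under 0.05. The direct comparison of the knockdowns used limma, a linear model fitted across all genes, on the recovered libraries. The labels call the libraries biological replicates, and with the clones unknown the p-values measure the spread between these libraries.

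The libraries held an estimated 15.8 to 39.7 M reads in Tet1kd, 14.4 to 31.1 M in Tet2kd and 14.6 to 31.6 M in parental cells. Tet1 stood at 25.2% of its parental mean in Tet1kd cells and Tet2 at 50.9% in Tet2kd cells, per the authors' deposited table. By the first deposited test Tet2 was higher in Tet1kd cells, at 117.8% of its parental mean (adjusted p = 0.0186). Tet1 was at 116.5% in Tet2kd cells and did not pass that test (adjusted p = 0.104). Of the listed embryonic stem cell markers 13 were present in the authors' deposited tables, which were scaled separately. The lowest of their means was 1208 normalized counts in Tet1kd cells, against 1424 in parental cells of the same table. In the other table it was 1252 in Tet2kd cells, against 1307 in parental cells. Of these 13 markers 6 were higher and 3 lower in Tet1kd cells, and 1 was higher and 0 lower in Tet2kd cells. Their means summed to 123.7% of the parental sum in Tet1kd cells and to 103.3% in Tet2kd cells. Markers of feeder fibroblasts were also detected. Their summed level over 25 of 25 genes, none at 0, was 16273 to 17535 in Tet1kd libraries, 21716 to 23327 in Tet2kd libraries and 21201 to 22616 in parental libraries. Of these 25 markers 2 were higher and 18 lower in Tet1kd cells, and 5 were higher and 4 lower in Tet2kd cells. Primitive endoderm markers summed, over 15 of 18 genes, to 13711 to 15956 in Tet1kd, 9754 to 11477 in Tet2kd and 9741 to 10845 in parental libraries. This sum lacks abundant markers whose reads were not recovered. Over 17 of the genes the means in the authors' deposited tables summed to 35288 in Tet1kd cells, against 34317 in parental cells (103%), and to 32956 in Tet2kd cells, against 31513 in parental cells (105%). Of 16 tested, 5 were higher and 5 lower in Tet1kd cells, and 1 was higher and 5 lower in Tet2kd cells. Ttr was at 0 in every group and Afp at 0 in the parental group. The neuroectoderm list, over 13 of 14 genes, summed to 2360 to 2419 in Tet1kd, 2581 to 2727 in Tet2kd and 2423 to 2602 in parental libraries. Among 13 tested, 1 was higher and 4 lower in Tet1kd cells. In Tet2kd cells 1 was higher and 0 lower. Changes on the list had a median of -1.74 log2 units in Tet1kd and 0.18 in Tet2kd cells. Olig2 was the higher one in Tet1kd cells (deposited mean 1136, against 443 in parental cells), so the sum hides the lower ones. Dcx was at 0 in both knockdowns and Fabp7 at 0 in Tet1kd cells, and Pax6 and Olig2 stand both on this list and among the retinoic acid responsive genes. The part of these other cells in the results below was not tested. In bulk RNA, fewer cells of a type and less RNA per cell cannot be told apart.

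In Tet1kd cells members at several steps of the pathway changed. Per the authors' deposited table, Dhrs3 rose to 3.15 times its parental mean and Rarg fell to 42.9% of it, while Rxra and Rara rose and Crabp1 fell more modestly. In Tet2kd cells Cyp26a1 rose 7.69-fold and Crabp2 1.65-fold, and Rarg fell to 75.1% of the parental mean. By the authors' deposited adjusted p, 5 of the 9 members were called in Tet1kd cells, 3 higher and 2 lower, against 30.4% of all 23120 genes tested, 15.2% higher and 15.3% lower. In Tet2kd cells 3 of 9 were called, 2 higher and 1 lower, against 7.14% of 22949 genes, 3.85% higher and 3.29% lower. Well-expressed genes are called more often. At group means averaging at least 50 the shares were 49% in Tet1kd and 12.3% in Tet2kd cells, and 5 and 2 of the 7 members at that level were called. With 7 members, these counts are not read as particular to the pathway. The median log2 fold change of the 9 members was -0.42 in Tet1kd cells, beside -0.02 over all genes tested, and 0.33 in Tet2kd cells, beside 0.00.

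**Figure D1:**
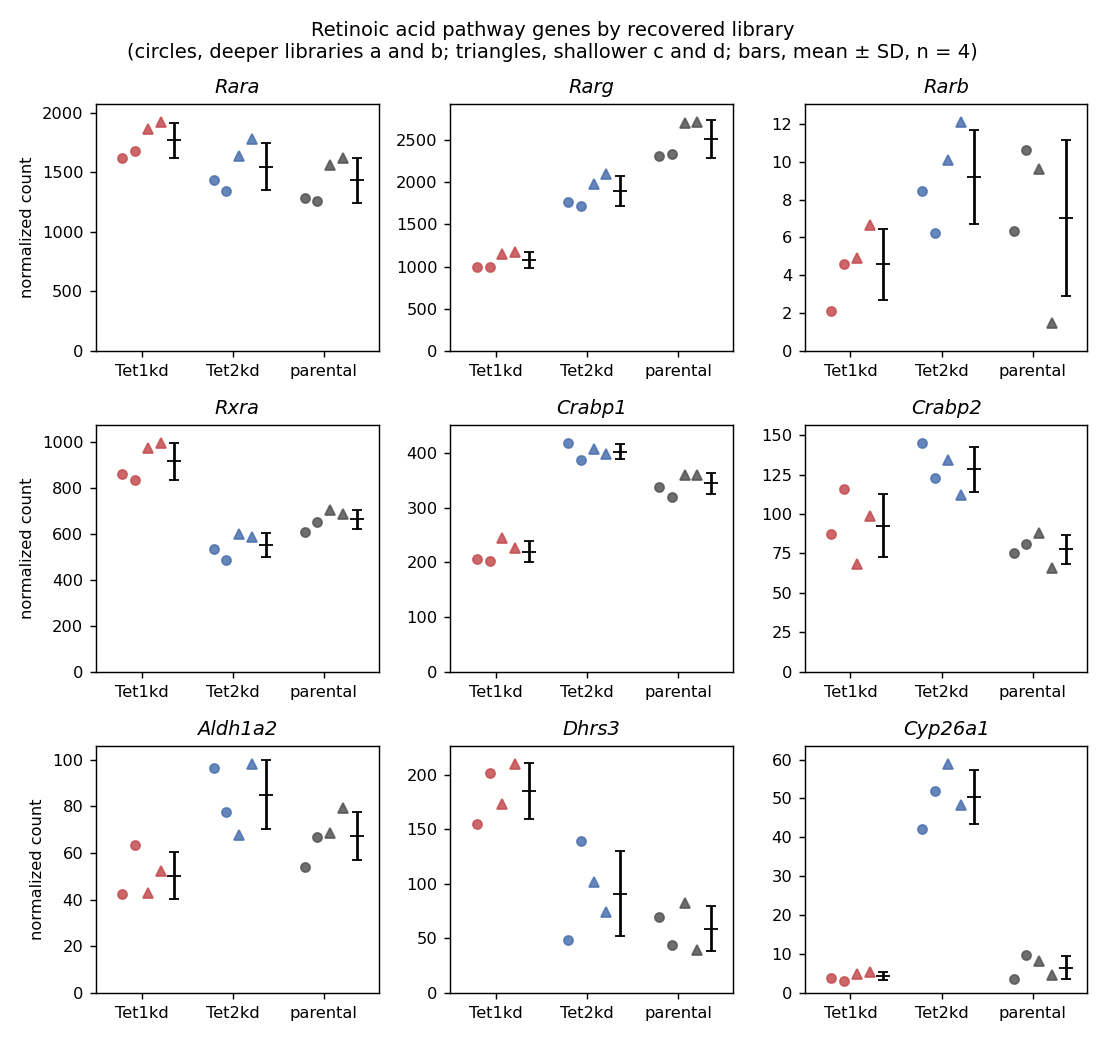
Normalized count (vertical axes, from 0) of the 9 retinoic acid pathway genes in each recovered library of Tet1kd, Tet2kd and parental cells, with the mean and SD of 4 libraries as a bar. Rarg in Tet1kd libraries (991 to 1168) sits below every Tet2kd and parental library, and Cyp26a1 in Tet2kd libraries (42.2 to 58.9) sits above every other library.

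Supply of the ligand was represented by Aldh1a2 (ENSMUSG00000013584, chromosome 9), the retinaldehyde dehydrogenase that makes most retinoic acid in the early embryo. Its normalized counts were 42.2, 63.6, 42.9 and 52.1 in Tet1kd libraries a to d, 96.3, 77.7, 67.5 and 98.2 in Tet2kd libraries, and 54.1, 66.8, 68.7 and 79.3 in parental libraries. Both knockdowns overlapped the parental libraries, but every Tet1kd library lay below every Tet2kd library. The authors' deposited table gave log2 fold changes of -0.42 in Tet1kd (adjusted p = 0.286) and 0.33 in Tet2kd cells (adjusted p = 0.338), neither past the threshold. The direct difference, Tet1kd over Tet2kd, was -0.76 log2 units (95% interval -1.15 to -0.36, limma adjusted p = 0.0033).

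Dhrs3 (ENSMUSG00000066026, chromosome 4), the reductase that returns retinaldehyde to retinol, had normalized counts of 155, 202, 173 and 210 in Tet1kd libraries, 48.5, 139, 102 and 74 in Tet2kd libraries, and 69.6, 44, 82.4 and 38.9 in parental libraries. All Tet1kd libraries were above all others, while the Tet2kd libraries were scattered and overlapped the parental ones. The means were 185 ± 25.7 in Tet1kd, 90.9 ± 38.9 in Tet2kd and 58.7 ± 20.7 in parental cells (SD, n = 4 each). In the authors' deposited table Dhrs3 was higher in Tet1kd cells by 1.66 log2 units (adjusted p = 5.11e-13). The deeper libraries (a and b) and the shallower ones (c and d) each gave this difference, at 1.65 and 1.66. In Tet2kd cells the log2 fold change was 0.63 (adjusted p = 0.608), with a limma interval from -0.03 to 1.21. Without Tet2kd library a it was 0.85 by limma (adjusted p = 0.0417), so this library decides that call. Tet1kd exceeded Tet2kd by 1.11 log2 units (limma adjusted p = 0.00458).

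Of the cellular binding proteins, Crabp1 fell in Tet1kd cells and Crabp2 rose in Tet2kd cells. Crabp1 (ENSMUSG00000032291, chromosome 9) had normalized counts of 207, 202, 244 and 226 in Tet1kd libraries, 418, 386, 407 and 397 in Tet2kd libraries, and 337, 320, 360 and 359 in parental libraries. No library of any group reached into another group: Tet1kd was lowest, parental between, and Tet2kd highest. In Tet1kd cells Crabp1 fell by 0.65 log2 units per the authors' deposited table (adjusted p = 6.80e-06), with within-depth values of -0.68 and -0.61 in the deeper and the shallower libraries. In Tet2kd cells the log2 fold change of 0.22 did not pass (adjusted p = 0.253), whereas limma with the library batch (deeper or shallower) as a term called it (0.23, adjusted p = 0.028). The log2 difference, Tet1kd over Tet2kd, was -0.87 (95% interval -1.05 to -0.70, limma adjusted p = 4.74e-07), Crabp1 being lower in Tet1kd cells.

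Crabp2 (ENSMUSG00000004885, chromosome 3), which delivers retinoic acid to the receptors, had normalized counts of 87.5, 116, 68.6 and 98.9 in Tet1kd libraries, 145, 123, 134 and 112 in Tet2kd libraries, and 75.2, 81.2, 87.9 and 65.8 in parental libraries. Every Tet2kd library was above every parental library, and the Tet1kd libraries spread across both. Crabp2 rose in Tet2kd cells by 0.72 log2 units per the authors' deposited table (adjusted p = 0.00353), and by 0.78 and 0.67 in the deeper and the shallower libraries. In Tet1kd cells the log2 fold change was 0.26 (adjusted p = 0.393). The direct log2 difference, Tet1kd over Tet2kd, was -0.49 (limma adjusted p = 0.0214). It lost its call without Tet1kd library c (-0.35, adjusted p = 0.076) and without Tet2kd library a (-0.43, adjusted p = 0.0652).

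Set per length of exon, Crabp1 was the far more abundant of the pair in every library. Crabp2 made up 20.5 ± 4.61% of the summed normalized count per kilobase of Crabp1 and Crabp2 in Tet1kd, 16.2 ± 1.18% in Tet2kd and 12.05 ± 1.49% in parental cells (SD, n = 4 each). Every knockdown library exceeded every parental library, the parental values lying between 10 and 13.4%. The Tet1kd share came with a fall of Crabp1, and the Tet2kd share with a rise of Crabp2. These shares, like those of the receptors below, were chosen after the values were seen and carry no test.

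Among the receptors, Rarg changed most. Rarg (ENSMUSG00000001288, chromosome 15), the gene of RAR gamma, had normalized counts of 991, 997, 1147 and 1168 in Tet1kd libraries, 1766, 1721, 1984 and 2098 in Tet2kd libraries, and 2314, 2328, 2700 and 2713 in parental libraries. The groups did not overlap: all Tet1kd libraries were lowest, all Tet2kd libraries intermediate and all parental libraries highest. The means were 1076 ± 94.7 in Tet1kd, 1892 ± 179 in Tet2kd and 2514 ± 223 in parental cells (SD, n = 4 each). The authors' deposited table gave log2 fold changes of -1.22 in Tet1kd (adjusted p = 1.33e-29) and -0.41 in Tet2kd cells (adjusted p = 0.00136). In the deeper and the shallower libraries the difference was -1.22 and -1.23 in Tet1kd cells, and -0.41 in both in Tet2kd cells. Rarg was lower in Tet1kd than in Tet2kd cells in the direct test (log2 difference -0.81, 95% interval -0.99 to -0.64, limma adjusted p = 9.33e-07).

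Rara (ENSMUSG00000037992, chromosome 11), the most widely expressed RAR, had normalized counts of 1617, 1677, 1860 and 1923 in Tet1kd libraries, 1436, 1341, 1635 and 1782 in Tet2kd libraries, and 1289, 1256, 1563 and 1624 in parental libraries. In each group the shallower libraries c and d were the higher ones, and the groups overlapped. Rara rose in Tet1kd cells by 0.31 log2 units per the authors' deposited table (adjusted p = 0.0144), and by 0.37 and 0.25 in the deeper and the shallower libraries. By limma its call was lost without Tet1kd library d (adjusted p = 0.0517), parental library a (0.0538) or parental library b (0.0594). It was kept by limma with the library batch as a term (0.31, adjusted p = 1.52e-06). The rise also passed the second deposited test (adjusted p = 2.81e-08). In Tet2kd cells its log2 fold change was 0.11 (adjusted p = 0.834), and limma with the library batch as a term called it (0.11, adjusted p = 0.0486). Between the knockdowns the difference of 0.20 did not pass, with an interval from -0.02 to 0.41 (limma adjusted p = 0.116). The limma model with that term gave the same difference with an adjusted p of 0.000437.

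Rarb (ENSMUSG00000017491, chromosome 14), a receptor that retinoic acid itself induces and whose promoter window holds a DR5, was close to the limit of detection. Its reads summed to 19 over the Tet1kd libraries, 34 over the Tet2kd libraries and 31 over the parental libraries. Normalized counts were 2.13, 4.6, 4.9 and 6.68 in Tet1kd libraries, 8.44, 6.25, 10.1 and 12.1 in Tet2kd libraries, and 6.32, 10.6, 9.61 and 1.5 in parental libraries. The groups overlapped, and the parental values alone covered most of the range. Per the authors' deposited table its log2 fold changes were -0.61 in Tet1kd (adjusted p = 0.49) and 0.39 in Tet2kd cells (adjusted p = 1). A change was not detectable at this depth, since limma intervals without a filter on low counts ran from -1.62 to 0.84 in Tet1kd and from -0.63 to 1.82 in Tet2kd cells. On GRCm38 the annotation also places Top2b, with a parental mean of 1770, on the opposite strand over part of Rarb, and whether counting used strand is not stated in the sources used here. The few Rarb reads therefore cannot be told apart from reads of Top2b.

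Rxra (ENSMUSG00000015846, chromosome 2), the gene of the heterodimer partner, rose in Tet1kd cells and lay lower in Tet2kd cells without passing the first deposited test. Its normalized counts were 863, 836, 976 and 998 in Tet1kd libraries, 536, 487, 603 and 588 in Tet2kd libraries, and 611, 654, 707 and 688 in parental libraries. All Tet1kd libraries lay above and all Tet2kd libraries below the parental ones, although the highest Tet2kd library (603) nearly met the lowest parental library (611). Rxra rose in Tet1kd cells by 0.47 log2 units per the authors' deposited table (adjusted p = 4.15e-05), and by 0.43 and 0.50 in the deeper and the shallower libraries. The log2 fold change of -0.27 in Tet2kd cells did not pass the first deposited test (adjusted p = 0.0996). It passed the second deposited test (adjusted p = 0.00485) and limma (adjusted p = 0.0374). Tet1kd exceeded Tet2kd by 0.73 log2 units (95% interval 0.55 to 0.91, limma adjusted p = 3.67e-06).

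The make-up of the RAR transcripts differed between the groups. Rarg made up 38.3 ± 0.375% of the summed normalized count per kilobase of Rara, Rarb and Rarg in Tet1kd, 55.5 ± 0.898% in Tet2kd and 64.2 ± 0.991% in parental cells (SD, n = 4 each). Rara made up 61.5 ± 0.36% in Tet1kd, 44.2 ± 0.862% in Tet2kd and 35.6 ± 1.07% in parental cells. Rarg thus led Rara in every Tet2kd and parental library, and Rara led Rarg in every Tet1kd library. Rarb never exceeded 0.254%. The 3 genes summed to 659 ± 55.7 normalized counts per kilobase in Tet1kd, 801 ± 87.7 in Tet2kd and 920 ± 94.6 in parental cells. A share within a library does not depend on its size factor, and it does depend on the exon lengths taken. Without division by length Rarg made up 37.7% in Tet1kd, 54.9% in Tet2kd and 63.7% in parental cells.

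**Figure D2:**
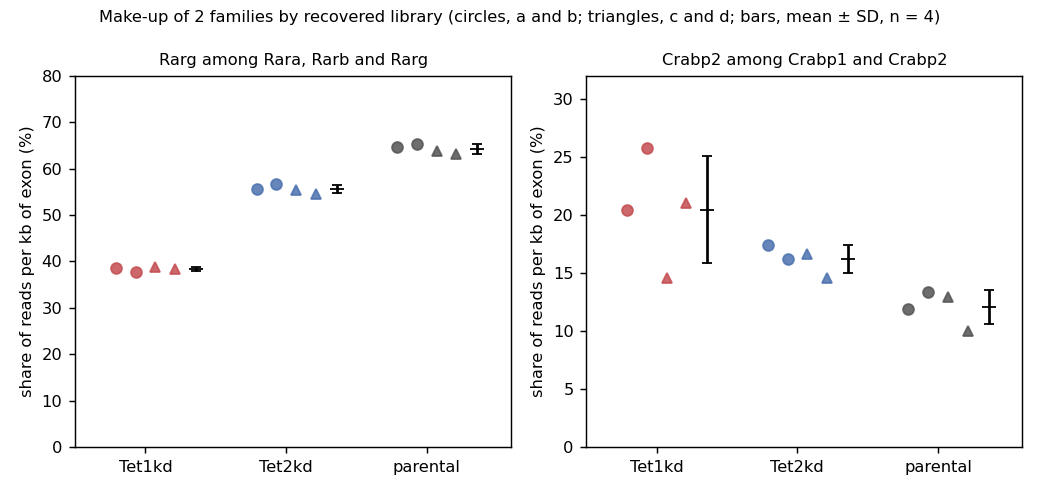
Share (vertical axes, percent of normalized count per kilobase of exon) of Rarg among Rara, Rarb and Rarg (left) and of Crabp2 among Crabp1 and Crabp2 (right), by library, with mean and SD of 4 libraries. The Rarg share is 37.8 to 38.7% in Tet1kd, 54.5 to 56.7% in Tet2kd and 63.1 to 65.3% in parental libraries, with no overlap.

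Clearance was represented by Cyp26a1 (ENSMUSG00000024987, chromosome 19), the cytochrome P450 that hydroxylates retinoic acid and the other member with a DR5 in its promoter window. Its normalized counts were 3.74, 3.07, 4.9 and 5.35 in Tet1kd libraries, 42.2, 51.8, 58.9 and 48.3 in Tet2kd libraries, and 3.51, 9.87, 8.24 and 4.49 in parental libraries. All Tet2kd libraries stood far above the rest, while Tet1kd and parental libraries overlapped. The reads behind these values were 19 in Tet1kd, 191 in Tet2kd and 27 in parental cells, so the low groups rest on few reads. Cyp26a1 rose in Tet2kd cells by 2.94 log2 units per the authors' deposited table (adjusted p = 1.27e-10), and by 2.81 and 3.07 in the deeper and the shallower libraries. In Tet1kd cells the log2 fold change of -0.61 did not pass (adjusted p = 0.674), with a limma interval from -1.29 to 0.33. Cyp26a1 was lower in Tet1kd than in Tet2kd cells, with a log2 difference of -3.43 (95% interval -4.24 to -2.62, limma adjusted p = 2.27e-06). Rarb, the other gene with a DR5 window, was not called in either knockdown.

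In total the direct comparison of Tet1kd with Tet2kd cells called 7 of the 8 members with a mean of at least 10, of which Dhrs3 and Rxra were higher in Tet1kd cells and Aldh1a2, Crabp1, Crabp2, Rarg and Cyp26a1 lower. Across all 14514 genes limma called 50.7% in that comparison. Against parental cells limma called 5 of 8 members in Tet1kd (54.4% of all genes) and 4 of 8 in Tet2kd cells (19.4%), the added call being Rxra. Libraries did not overlap for 6 of 9 members between the knockdowns, 4 of 9 between Tet1kd and parental, and 5 of 9 between Tet2kd and parental, where the shares among genes averaging 10 or more were 44.7%, 48.7% and 23.1%. Both knockdowns were set against the same 4 parental libraries.

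**Figure D3:**
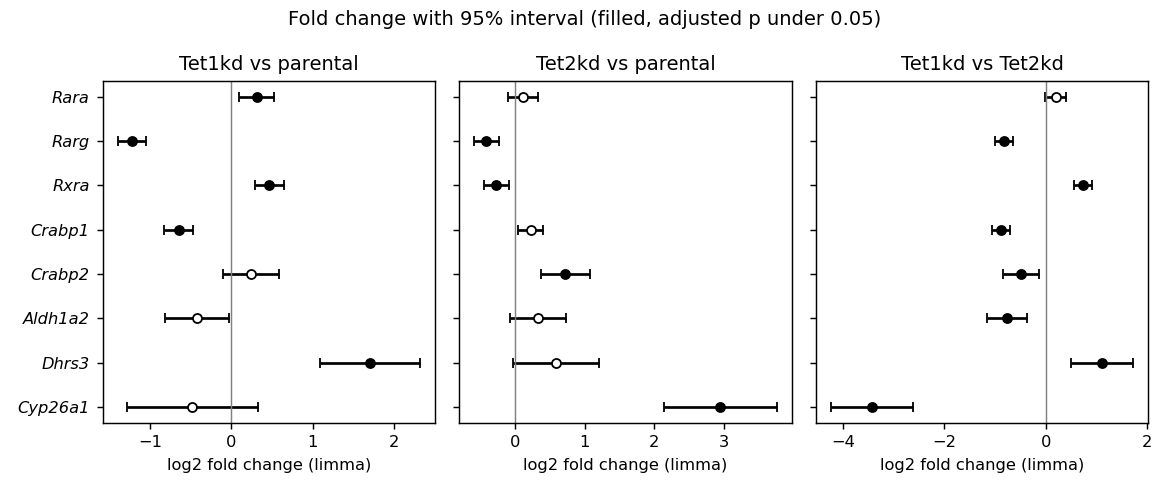
Log2 fold change from limma (horizontal axes) with its 95% interval for the 8 members with a mean of at least 10, for Tet1kd over parental, Tet2kd over parental and Tet1kd over Tet2kd, with filled points where the adjusted p was under 0.05. Cyp26a1 stands at 2.95 in Tet2kd cells, Dhrs3 at 1.70 and Rarg at -1.22 in Tet1kd cells.

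Levels of the members spanned a wide range when divided by exon length. In parental cells the order, in normalized counts per kilobase, was Rarg (590 ± 52.2), Crabp1 (429 ± 23.97), Rara (328 ± 43.0), Rxra (122 ± 7.76), Crabp2 (58.6 ± 7.10), Aldh1a2 (29.7 ± 4.55), Dhrs3 (20.1 ± 7.08), Cyp26a1 (3.29 ± 1.52) and Rarb (1.33 ± 0.781), each with the SD of 4 libraries. Aldh1a2 and Dhrs3 overlapped between libraries, as did Cyp26a1 and Rarb, and the other neighbours did not. In Tet1kd cells Rara (405 ± 33.3) came first, ahead of Crabp1 (274 ± 23.97) and Rarg (252 ± 22.2), which overlapped each other. Dhrs3 (63.2 ± 8.78) came before Aldh1a2 (22.2 ± 4.43) there and overlapped Crabp2 (70.1 ± 15.0). In Tet2kd cells Crabp1 (501 ± 16.6) came first and overlapped Rarg (444 ± 42.0), which overlapped Rara (355 ± 45.4). Cyp26a1 (25.4 ± 3.52) reached the range of Dhrs3 (31.1 ± 13.3) in Tet2kd cells.

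**Figure D4:**
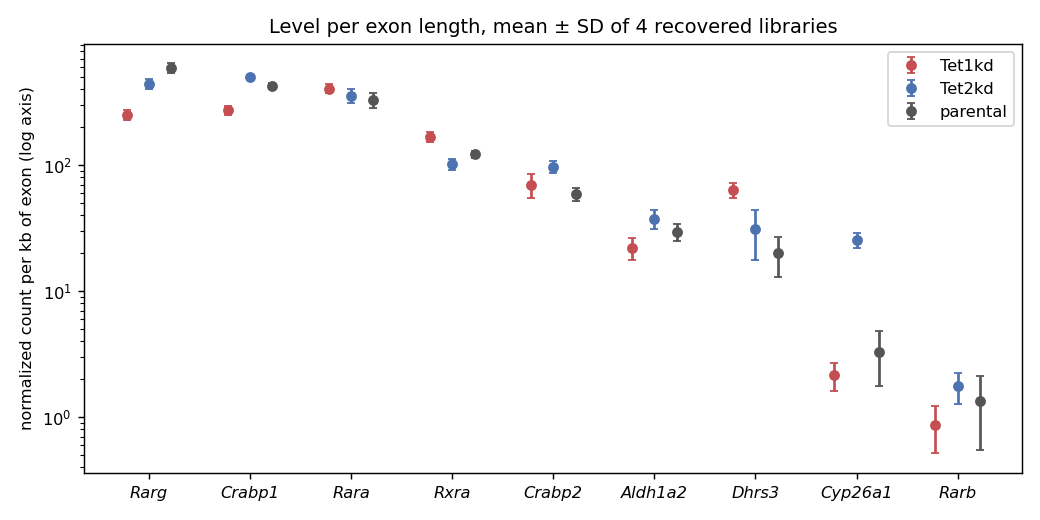
Normalized count per kilobase of exon (vertical log axis) of the 9 members in Tet1kd, Tet2kd and parental cells, as mean and SD of 4 libraries, in the parental order. Rarg leads in parental cells (590) and Rara in Tet1kd cells (405), and Rarb has the lowest mean in all groups.

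Use of exons within the members was read from the deposited exon tables, which split genes into bins. In Tet1kd cells 5 of the 82 tested bins of the members were called in the authors' deposited table, where 2.56% of all bins were. Relative to the rest of its gene, bin 6 of Crabp2 was used more (adjusted p = 0.0152) and bin 1 less (adjusted p = 0.0347) in Tet1kd cells. Bin 14 of Rara was used less (adjusted p = 0.0187). Bin 5 of Cyp26a1 was used more and bin 7 less (adjusted p = 0.0126 each), with means of 1.55 and 2.31 normalized counts. None of these bins passed a threshold of 0.01. No bin was called among the 16 tested of Rarg (lowest adjusted p = 0.0546) or the 14 tested of Dhrs3 (0.557), the members with the largest changes of level in Tet1kd cells. In Tet2kd cells 0 of 85 tested bins were called in the authors' deposited table (10 at an unadjusted p under 0.05), where 2.45% of all bins were. The 4 tested bins of Cyp26a1 had a lowest adjusted p of 0.584 there.

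Genes near the members on the same chromosome had median changes close to 0. The 20 nearest tested genes of each member had medians of the log2 fold change, per the authors' deposited tables, between -0.24 (around Rara) and 0.18 (around Dhrs3) in Tet1kd cells. In Tet2kd cells these medians lay between -0.13 (around Rxra) and 0.00 (around Rarg). Around Dhrs3, itself at 1.66 in Tet1kd cells, 1 neighbour was higher and 0 were lower, and around Cyp26a1, itself at 2.94 in Tet2kd cells, 0 were higher and 2 lower. Other surroundings held more calls. In Tet1kd cells 5 neighbours of Aldh1a2 were higher and 7 lower, and 1 neighbour of Rara was higher and 4 lower. Over all genes tested 15.2% were higher and 15.3% lower in Tet1kd cells, and 3.85% and 3.29% in Tet2kd cells.

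The rest of the pathway was read from 4 lists with 118 genes in all beside the members. By the authors' deposited adjusted p, 53 of 104 tested genes were called in Tet1kd cells, 24 higher and 29 lower, or 51%. In Tet2kd cells 17 of 105 were called, 10 higher and 7 lower, or 16.2%. Over all genes tested the shares were 30.4% in Tet1kd and 7.14% in Tet2kd cells. Among genes with a mean of at least 50, 43 of 60 were called in Tet1kd and 16 of 60 in Tet2kd cells, where the shares over all such genes were 49% and 12.3%. No test compared the lists with other genes.

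Genes of retinoid uptake, storage and synthesis were called in Tet1kd cells for 10 of 26, or 38.5%, beside 30.4% of all genes tested. Of 12 with a mean of at least 50, 4 were higher and 4 lower, where 49% of all such genes were called. Of the whole list, 4 were higher and 6 lower (median log2 fold change -0.26). Among the lower ones, named with their values in view, were the retinol dehydrogenase Rdh10 that feeds retinaldehyde to Aldh1a2 (-0.81, adjusted p = 2.69e-05) and the retinol transporter Stra6 (-1.92, adjusted p = 0.000551), both in the authors' deposited table. In Tet2kd cells 1 of 27 was higher, Pnpla2 (0.31), and 3 were lower, Stra6 (-1.29), Lpl (-0.53) and Retsat (-0.42). That is 14.8%, beside 7.14% of all genes tested. Of 12 with a mean of at least 50, 1 was higher and 2 lower, where 12.3% of all such genes were called. Of 5 clearance genes, Cyp2s1 was higher in Tet1kd cells (0.67) and Cyp1b1 in Tet2kd cells (0.53) in the authors' deposited table. That is 20% in each, beside 30.4% of all genes tested in Tet1kd and 7.14% in Tet2kd cells.

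Receptor partners and cofactors were called in Tet1kd cells for 15 of 25, or 60%, beside 30.4% of all genes tested. Most were well expressed: of 20 with a mean of at least 50, 10 were higher and 4 lower, where 49% of all such genes were called. Of the whole list, 10 were higher and 5 lower (median 0.20). The lower ones were the orphan receptor genes Nr6a1 and Nr2c2, the RXR gene Rxrb, the coactivator gene Ncoa3 and Pramel7. Nr6a1, a repressor on direct repeats also known as GCNF, had normalized counts of 1275, 1252, 1205 and 1161 in Tet1kd libraries, against 2692, 2919, 2699 and 2764 in parental libraries. The groups did not overlap, and the log2 fold change, per the authors' deposited table, was -1.18 (adjusted p = 9.39e-36). Rxrb fell by 0.55 log2 units (adjusted p = 1.88e-08), opposite to Rxra. In Tet2kd cells 4 of 25 were higher, Tbl1xr1, Ppard and Rora among them, and Ncoa3 was lower (median -0.01). That is 20%, beside 7.14% of all genes tested. Of 20 with a mean of at least 50, 4 were higher and 1 lower, where 12.3% of all such genes were called.

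Genes known from other work to respond to retinoic acid were called in Tet1kd cells for 30 of 53, 10 higher and 20 lower. That is 56.6%, beside 30.4% of all genes tested. The median log2 fold change of the list was -0.55, beside -0.02 over all genes tested. Of 28 listed genes with a mean of at least 50, 10 were higher and 12 lower, where 49% of all such genes were called. Cdx1, a caudal homeobox gene with known response elements, was at 4.43% of its parental mean per the authors' deposited table (adjusted p = 2.77e-125), and Pax6 at 5.88% (adjusted p = 1.21e-40). Other listed genes rose: Tgm2 (tissue transglutaminase) was 4.95-fold higher (adjusted p = 3.45e-125). Its normalized counts were 2658, 2801, 2903 and 3127 in Tet1kd libraries, against 549, 557, 585 and 634 in parental libraries. Egr1, an immediate-early factor, stood at 650.5% of its parental mean, Olig2 at 256% and the Nodal antagonist Lefty1 at 212% in the same table.

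In Tet2kd cells, where Cyp26a1 was higher, 8 of the 53 responsive genes were called, 4 higher and 4 lower (median 0.14, beside 0.00 over all genes). That is 15.1%, beside 7.14% of all genes tested. Of 28 with a mean of at least 50, 4 were higher and 3 lower, where 12.3% of all such genes were called. Lefty1 had normalized counts of 2216, 2171, 2189 and 2220 in Tet2kd libraries, against 848, 877, 935 and 837 in parental libraries, and was 2.51-fold higher in the authors' deposited table (adjusted p = 3.51e-45). Stra8, the meiosis gene named for its induction by retinoic acid, had normalized counts of 87.2, 78.5, 86.2 and 81.6 in Tet2kd libraries, against 165, 171, 177 and 167 in parental libraries (log2 fold change -1.03, adjusted p = 1.56e-06). Gata6, a primitive endoderm factor, had 45.7, 25, 37.4 and 54.4 in Tet2kd libraries, against 114, 132, 126 and 98.7 in parental libraries (log2 fold change -1.54, adjusted p = 4.74e-10). Egr1 (0.71), Tfap2c (0.59), Cdx1 (-0.83) and Stra6 were also among the called genes.

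**Figure D5:**
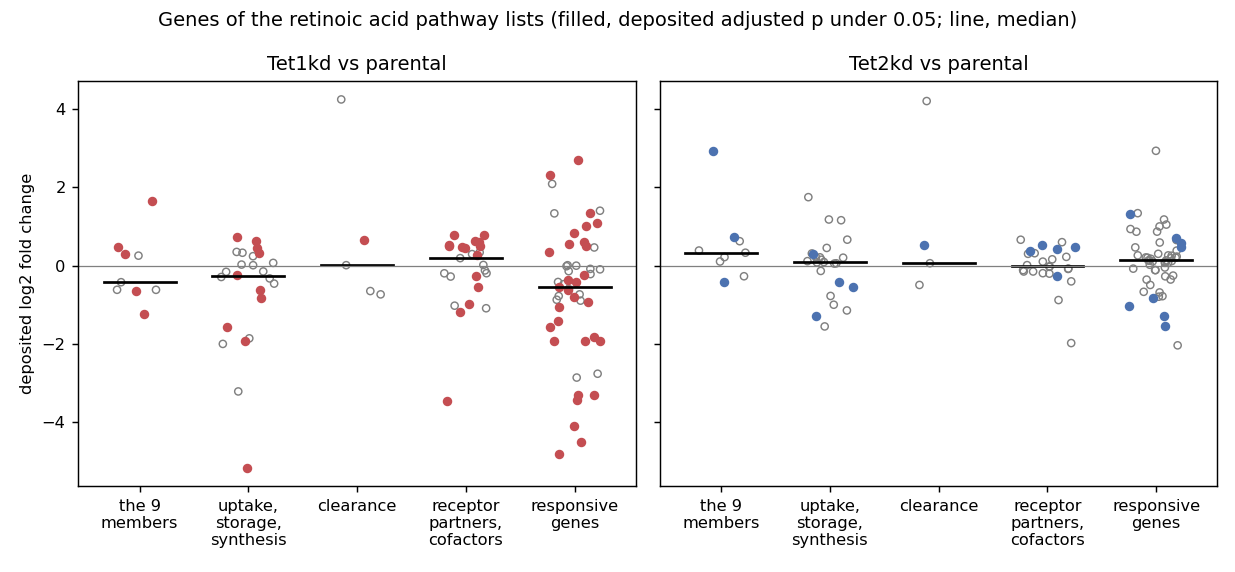
Deposited log2 fold change (vertical axis) of the 9 members and of 4 lists of pathway genes in Tet1kd (left) and Tet2kd cells (right) against parental cells, with filled points for adjusted p under 0.05 and a line at the median of the tested genes. Genes listed at 0 in a group (5 and 4 genes) have no finite fold and are not drawn, and the responsive genes in Tet1kd cells have a median of -0.55.

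Promoter windows with a DR5 were carried by 31 genes of the genome, of which 11 were tested. In Tet2kd cells 1 of the 11 was called in the authors' deposited table, Cyp26a1 itself, which is 9.09%. In Tet1kd cells 3 were called, all higher, Prokr2, Prss27 and Syndig1, which is 27.3%. Over all genes the shares were 7.14% in Tet2kd and 30.4% in Tet1kd cells.

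The genes whose levels followed a member most closely over the 12 libraries were taken from 11006 genes with a mean of at least 50, by Pearson correlation of the log2 normalized count. For Rarg these were Nab2 (r = 0.992), Mllt6 (0.991) and Epop (0.991). Spire1 (0.953), Dcaf6 (0.943) and Appl2 (0.929) were nearest to Dhrs3, and Cpsf4l (0.974), Rhpn2 (0.965) and Ccn2 (0.96) to Cyp26a1. The 12 points share 3 groups and the split into deeper and shallower libraries, so these values describe likeness of pattern only. Sizes of change differed. In Tet2kd cells Cpsf4l, Rhpn2 and Ccn2 had log2 fold changes of 0.66, 0.71 and 0.93, against 2.94 for Cyp26a1. In Tet1kd cells Spire1, Dcaf6 and Appl2 had 0.51, 0.50 and 0.88, against 1.66 for Dhrs3. Nab2, Mllt6 and Epop had -1.51, -0.64 and -0.83 there, against -1.22 for Rarg.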

How the data were processed

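Per the submitters' processing notes, the authors used TopHat2 (version 2.0.0), SAMtools (version 0.1.18) and DESeq, with the builds mm9 and NCBIM37. The deposited gene tables hold, per the file headers, a mean signal (normalized count) for each group, a ratio (fold) and its log2 value, and p-values with adjusted p-values from 2 tests. For each exon bin the deposited exon tables hold a mean signal, a log2 ratio, a p-value and a dispersion score, as their headers name them. The deposited exon ratio runs parental over knockdown, so directions were turned round, and its size was not used.

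Reads per library were recovered from the digits of the deposited means where only 1 set of 4 whole numbers matched, for 21235 Tet1kd, 20975 Tet2kd and 21941 parental genes. They hold 69.8%, 69.6% and 99.99% of the reads of these groups, so abundant genes are missing from the limma fit and from summed marker levels of recovered libraries. Of them, 1385 Tet1kd and 691 Tet2kd genes were recovered only with each library held within 20% of the mean. All 9 members were recovered, 7 after a search of every split, and Rara and Rarg with each library held within 60% of the mean, which excludes wider spreads for these 2. Where parental reads were recovered from 1 table alone, 42048 of 42049 answers equalled those from both tables. Libraries of different groups deviated together within the deeper or the shallower set (r of 0.348 to 0.536) and oppositely across the sets (-0.493 to -0.347). That split, called the library batch, comes from the values and not from the labels.

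Size factors were the median of ratios over the 12 libraries. The limma test (package version 3.58.1 in R 4.3.3) used log2(normalized count + 0.5) for genes with a mean of at least 10, with Benjamini-Hochberg adjustment over all of them. Tested on simulated data, it recovered 96, 94 and 90 of 100 genes with a 2-fold change, and 80, 82 and 80 of 100 with a 1.5-fold change, in Tet1kd against parental, Tet2kd against parental and Tet1kd against Tet2kd. These had 8, 17 and 5 false calls. The simulation changed 200 genes, gave all genes the median spread of the parental libraries and held no library batch. Its figures therefore do not give the error rate of the test in the real libraries. Symbols matched 31278 of 36521 IDs. Exon lengths and overlaps came from GENCODE vM21 (GRCm38), not the build of the files.

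All members are named. Listed pathway genes were named where past the threshold with at least a 2-fold change and a mean of at least 50 in either group, up to 8 per comparison by adjusted p. Other listed genes (Rdh10, Stra6, Rxrb and the members of small counts) were singled out after their values were seen, and some listed genes are not reported here. Likeness was taken for members called with at least a 2-fold change. The members and gene lists were chosen with earlier results of these data known. Alternatives were the second deposited test, stricter thresholds, other filters, pseudocounts and scalings, the library batch as a term, and leaving out each library.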

Additional observations from a re-analysis of the deposited data

How the results depend on the processing

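No paired analysis was possible because the recovered libraries carry no replicate numbers. The count of members called stayed within 1.5 times its value under every alternative run. By limma, leaving out each library in turn gave 4 to 6 members called in Tet1kd, 3 to 4 in Tet2kd and 6 to 8 between the knockdowns. No member's fold change turned its sign where it was called. The called exon bins of the members in Tet1kd cells came to 0 at an adjusted p of 0.01. The second deposited test called 32 pathway genes in Tet2kd cells, against 17 by the first. The limma call of Rxra in Tet2kd cells was lost with total reads as the scaling (adjusted p = 0.0531) and without Tet2kd library a (0.0862), Tet2kd library b (0.105), parental library b (0.0657), parental library c (0.0966) or parental library d (0.086). With the library batch as a term the Rxra call in Tet2kd cells was kept (-0.27, limma adjusted p = 0.000606). The same model also called Crabp1 (adjusted p = 0.028) and Rara (0.0486) in Tet2kd cells. Aldh1a2 in Tet1kd cells was called by limma without Tet1kd library b (-0.54, adjusted p = 0.0280) or parental library a (-0.52, adjusted p = 0.0384), and Rara between the knockdowns without Tet2kd library d (0.27, adjusted p = 0.0404). The cause was not tested. Depth limits Rarb throughout and Cyp26a1 in Tet1kd and parental cells. Without division by exon length the Crabp2 share was 29.6% in Tet1kd, 24.2% in Tet2kd and 18.4% in parental cells, an alternative chosen after seeing the data.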
